A study of Arabidopsis thaliana with 6 samples.

Results

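The genes described here had higher transcript levels in wild-type Arabidopsis seedlings grown in red light than in darkness and showed little or no such rise in dark-grown seedlings that lack 4 PIF transcription factors. They were chosen by value: the mean log2 ratio over dark-grown Col-0 had to be at least 1, a 2-fold rise, on the 3 red light arrays, and below 0.25 on the 3 pifQ arrays. Of 7234 genes with a named feature, 76 met both thresholds. From these, 7 were left out by name or chromosomal position, 5 of them genes of anthocyanin synthesis, which leaves 69 members. They are 14.9% of the 462 genes with a red light mean of at least 1. Because the thresholds used both groups, the members' values in red light, in pifQ and in their difference are given as a description, with no test in their support.

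Total RNA came from whole Arabidopsis thaliana seedlings and was measured on 6 two-colour arrays, 1 biological replicate per array. One group was Col-0, the wild-type accession, kept for 60 h in continuous red light of 24 μmol m-2 s-1. The other was the pifQ mutant (pif3, pif4, pil5 and pil6 combined), in which PIF1 (also called PIL5), PIF3, PIF4 and PIF5 (also called PIL6) are lost, kept for 60 h in darkness. All seeds, the reference included, had been given 3 days of cold at 4 °C in the dark on medium with 1% sucrose and then white light of 100 μmol m-2 s-1 for 6 h. The reference on every array was RNA of 60-h-old dark-grown Col-0, labelled with Cy3, while the sample carried Cy5. Both comparisons therefore share the dark Col-0 reference, no dyes were swapped, and the spread of the reference itself is not measured. No array held pifQ in red light. The labels give neither the alleles nor how many dark Col-0 extracts there were. In whole seedlings, fewer cells of a type and less RNA per cell cannot be told apart.

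Phytochromes are the red and far-red light receptors of plants. Activated by red light, they enter the nucleus, bind PIF proteins and bring about their breakdown, which moves the seedling from the etiolated form, with a long hypocotyl and closed pale cotyledons, to the green form. Seedlings without several PIFs take on part of the light-grown form in the dark, and many genes that light raises are already raised in them. The set described here is made of light-raised genes for which no such rise was measured in the mutant. Phytochromes also act through other routes, among them the control of HY5, a transcription factor that accumulates in light.

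The 6 arrays differed in how well they repeated within a group. Over the 7234 genes the correlation between arrays of a group was 0.812 to 0.913 in red light and 0.423 to 0.615 in pifQ, as a description across genes, which are not independent. No feature here is named for any of the 4 lost PIF genes, so the mutant was not checked by their transcripts. Of the 20 cell type markers listed, 2 have a named feature, and neither is a member. Genes are called measured here if they have a named feature, and unmeasured ones may still be read by features without a name. The guard cell marker FMA (FAMA) stood at 0.92, 0.85 and 0.82 in red light and at 0.73, -0.07 and -0.08 in pifQ, so it was higher than dark Col-0 in red light (limma adjusted p = 0.00389). The trichome marker TRY stood at -0.20, 0.23 and -0.04 in red light and at -0.37, -0.44 and -0.53 in pifQ (limma adjusted p in pifQ = 0.0432), a call lost in 9 other settings. Their part in the members' values was not tested. Values are log2 ratios over dark Col-0, with the base taken as 2 because it is not stated, and errors are SD over 3 arrays.

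The red light means of the 69 members ran from 1.00 to 3.04, which is 2.01-fold to 8.23-fold over dark Col-0, with a median of 1.24 or 2.36-fold. Their pifQ means ran from -0.58 to 0.25 with a median of 0.06. Over all 7234 genes the medians were -0.02 in red light and -0.04 in pifQ. In red light 24 members had a mean of at least 1.5 and 7 a mean of at least 2. In pifQ, 25 members had a mean below 0 and 44 a mean from 0 to 0.25.

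**Figure D1:**
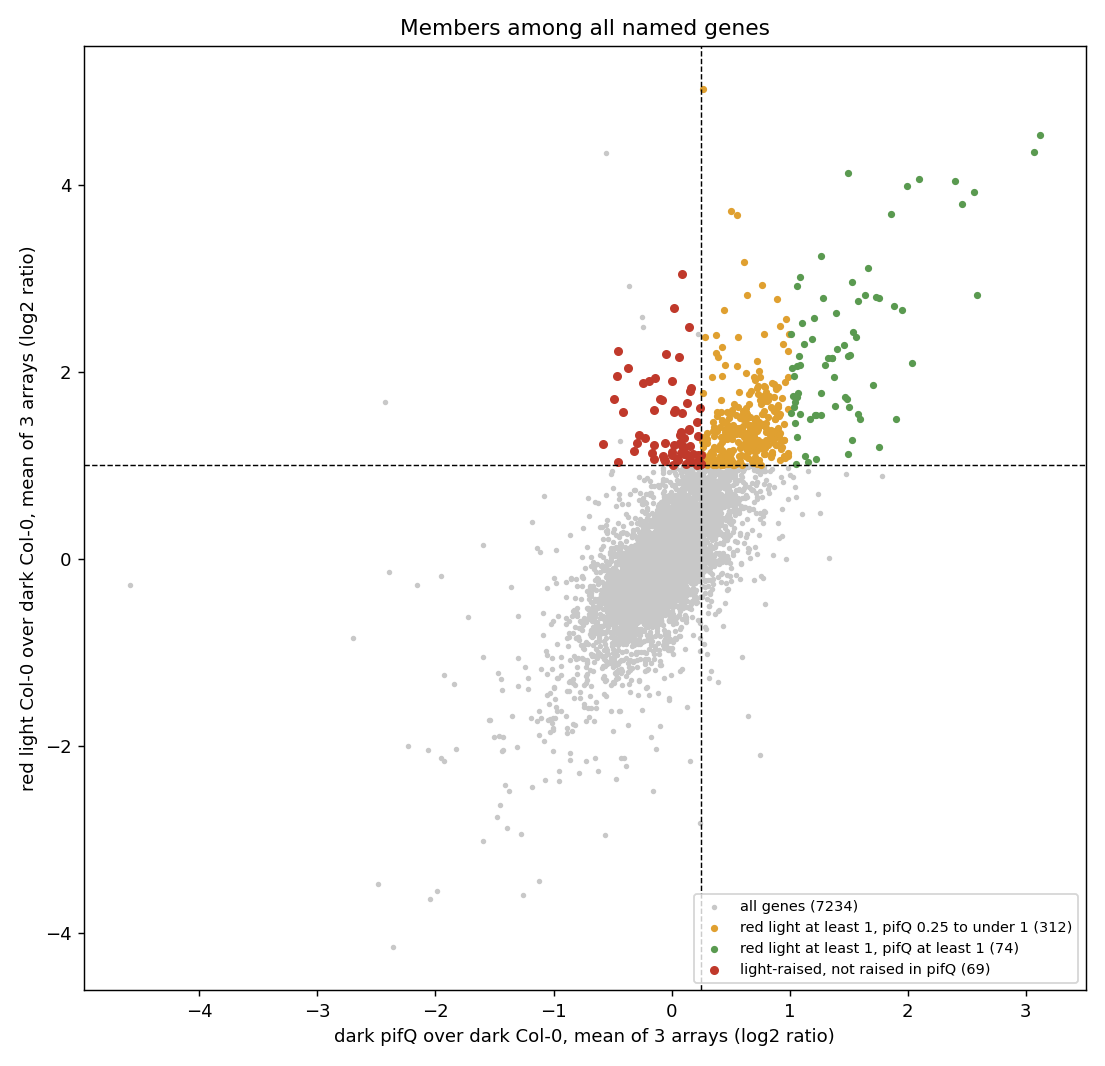
Mean log2 ratio over dark Col-0 in pifQ (x axis) against red light (y axis) for 7234 genes, with the 69 members coloured and the thresholds drawn as lines. Members fill the corner above 1 in red light and below 0.25 in pifQ, with a median of 1.24 and 0.06; the 7 genes left out by name or position lie in the same corner in grey.

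Array by array, the median member stood at 1.34, 1.5 and 1.08 on red light arrays 1, 2 and 3, and at 0.09, -0.07 and -0.004 on pifQ arrays 1, 2 and 3. All 69 members were above 0 on all 3 red light arrays. A ratio of at least 1 was reached by 61 members on red light array 1, by 59 on array 2 and by 40 on array 3. In pifQ, 55, 64 and 46 members were below 0.25 on arrays 1, 2 and 3. Both thresholds were met on every one of the 6 arrays by 15 members, among them AT5G42760, THI2.2, AT3G56290, AT3G21670, CSLB03 and TBL15. For 65 of 69 members the lowest red light array was above the highest pifQ array, as for 13.2% of all genes, and the choice of members bears on that count. The groups overlapped in AT5G54300, AT1G75960, AT4G33610 and AT4G31210.

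**Figure D2:**
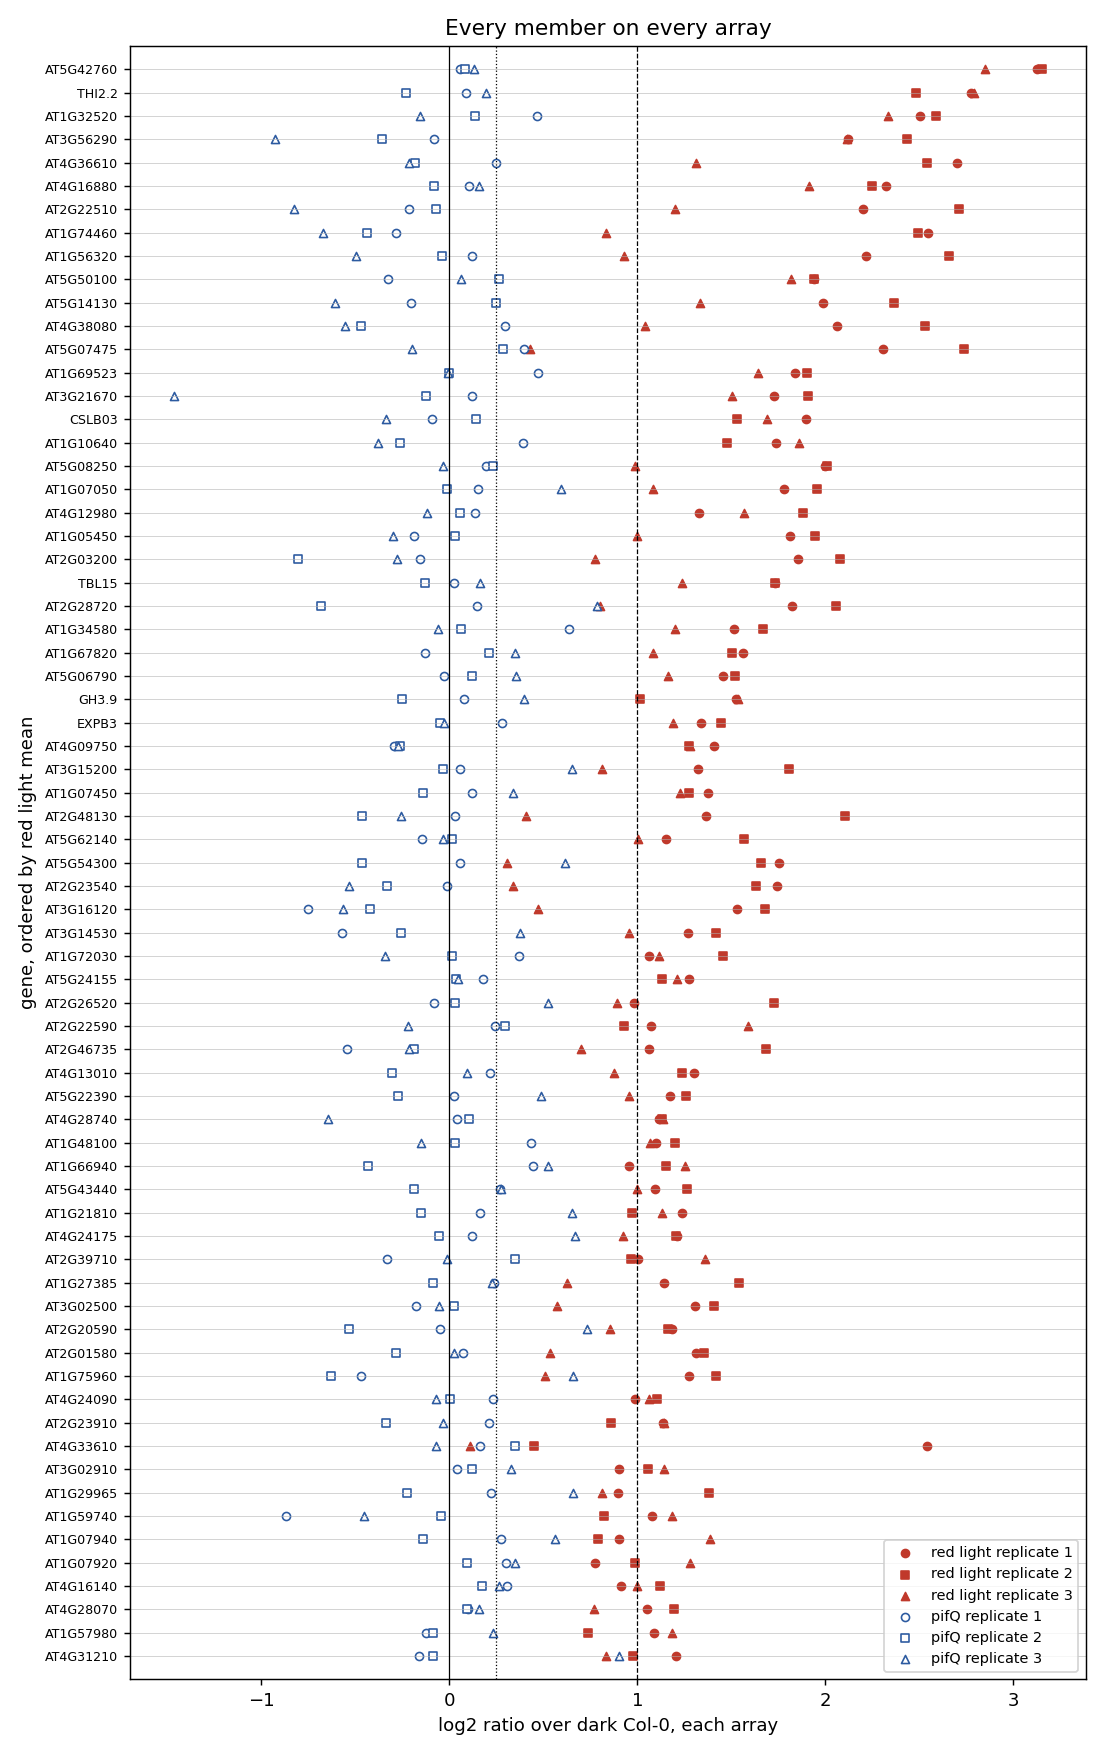
Log2 ratio over dark Col-0 (x axis) of each of the 69 members (y axis, ordered by red light mean), with 1 marker for each of the 6 arrays. The members' medians, not drawn, are 1.34, 1.5 and 1.08 on the red light arrays and 0.09, -0.07 and -0.004 on the pifQ arrays. The third red light array reaches the lowest values of the red light arrays.

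The annotation names 7 members, and the other 62 are given by locus only. The named member with the highest level was THI2.2, a thionin, one of the small cysteine-rich antimicrobial peptides of plants. THI2.2 stood at 2.78, 2.48 and 2.79 on the red light arrays and at 0.09, -0.23 and 0.19 on the pifQ arrays. The red light arrays lay close together and far above the pifQ arrays, which fell on both sides of 0. Its red light mean was 2.68 ± 0.17 (SD, n = 3), a 6.43-fold higher level than in dark Col-0, and its pifQ mean was 0.02 ± 0.22 (SD, n = 3). The other measured gene with a THI2 name, THI2.1, had 0.31 ± 0.19 (SD, n = 3) in red light, with a limma adjusted p of 0.0945.

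Both named transporters among the members belong to the NRT1/PTR family (NPF), whose proteins carry nitrate, peptides and other small solutes across membranes. AT3G21670, listed as NPF6.4, stood at 1.73, 1.91 and 1.5 in red light and at 0.12, -0.13 and -1.47 in pifQ. All red light arrays were above all pifQ arrays, and the third pifQ array was far below the other two. Its pifQ SD of 0.85 was the largest of any member, around a mean of -0.49. AT1G59740, listed as NPF4.3, stood at 1.08, 0.82 and 1.19 in red light and at -0.87, -0.04 and -0.45 in pifQ. Here too the groups were apart, and all 3 pifQ arrays were below 0.

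The family was read by name after values were seen, and 9 of its 27 listed genes were measured. Here, as in the families below, relatives listed under another name or by locus only are not counted. In red light 5 of the 9, both members among them, passed limma's adjusted p of 0.05 with a higher level, as did 18.8% of all genes, and 2 passed with a lower one, as did 19% of all genes. In pifQ 0 of the 9 passed in limma in either direction, while 4.59% of all genes passed as higher and 7.04% as lower. The calls of GTR1 and AT3G25260, at 0.37 and 0.34 in red light, and of AT1G72120, at -0.43, were lost under some other settings. AT1G68570, listed as NPF3.1, is no member because its pifQ mean of 0.29 lies just above the threshold. It stood at 2.49, 2.72 and 1.89 in red light and at -0.03, -0.05 and 0.93 in pifQ, so the third pifQ array alone put it outside. Its red light mean of 2.37 ± 0.43 (SD, n = 3) had a limma adjusted p of 0.000126. AT1G33440, listed as NPF4.4, went the other way in red light, with -1.06 ± 0.14 (SD, n = 3) and a limma adjusted p of 0.000936.

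Members with names from cell wall families were CSLB03, TBL15 and EXPB3. CSLB03 is a cellulose synthase-like protein, of a family whose members make wall polysaccharides, and it stood at 1.90, 1.53 and 1.69 in red light and at -0.09, 0.14 and -0.33 in pifQ. The arrays of the groups did not overlap. CSLB03 is the only member with 2 features, and they gave similar means of 1.77 and 1.64 in red light and 0.06 and -0.25 in pifQ. TBL15 is a TRICHOME BIREFRINGENCE-LIKE protein, of a family known for adding acetyl groups to wall polysaccharides. It stood at 1.73, 1.73 and 1.24 in red light, all well above its pifQ values of 0.02, -0.13 and 0.16. EXPB3 is a beta-expansin, of the proteins that loosen cell walls. It stood at 1.34, 1.45 and 1.19 in red light and at 0.28, -0.05 and -0.03 in pifQ, again without overlap.

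Relatives of these wall genes are described by counts, beside 18.8% of all genes passing as higher and 19% as lower in red light, and 4.59% and 7.04% in pifQ. Of 14 measured TBL genes, 3 (TBL15 among them) passed as higher and 5 as lower in red light, and 1 as higher and 4 as lower in pifQ. TBL45 had 1.49 ± 0.17 (SD, n = 3) in red light (limma adjusted p = 7.33e-05) and 0.63 ± 0.21 in pifQ, while TBL38 had -1.24 ± 0.13 in red light (limma adjusted p = 0.000114). Of 8 measured expansin genes, 4 passed as lower in red light and 1 as higher, EXPB3, which was chosen for that value. EXPA9, an alpha-expansin, was 3.32-fold lower in red light than in dark Col-0 (-1.73 ± 0.32, SD, n = 3; limma adjusted p = 0.000195). It was also lower in pifQ, at -1.54 ± 0.41 (SD, n = 3; limma adjusted p = 0.00221). In pifQ, 2 of the 8 expansin genes passed as lower, EXPA9 and EXLA2, and 0 as higher. EXLA2 stood at a pifQ mean of -0.99 (limma adjusted p = 0.0134). Of 5 measured cellulose synthase-like genes, 2 (CSLB03 among them) passed as higher and 1 as lower in red light, and 0 passed in limma in pifQ. Counts in families this small, which entered through a member, say nothing about the families. The red light calls of TBL45, TBL38 and EXPA9 held in every setting run, as did those of TBL41, TBL36 and EXLA2 at -1.25, -1.08 and -1.37. Calls of CSLC5, CSLA03, TBL26, TBL39, TBL19, EXPA4 and EXPA8 in red light were lost in at least 1 setting. In pifQ, the calls of TBL45, TBL38, TBL39, TBL41, TBL19 and EXLA2 were each lost in at least 1 setting, and that of EXPA9 held in all.

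GH3.9 belongs to the GH3 proteins, several of which join the hormone indole-3-acetic acid to amino acids. It stood at 1.53, 1.01 and 1.53 in red light and at 0.08, -0.25 and 0.40 in pifQ. The lowest red light array stayed above the highest pifQ array. Its red light mean was 1.36 ± 0.30 (SD, n = 3), a 2.56-fold higher level than in dark Col-0. The other 3 measured GH3 genes did not pass limma's threshold in red light or in pifQ.

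**Figure D3:**
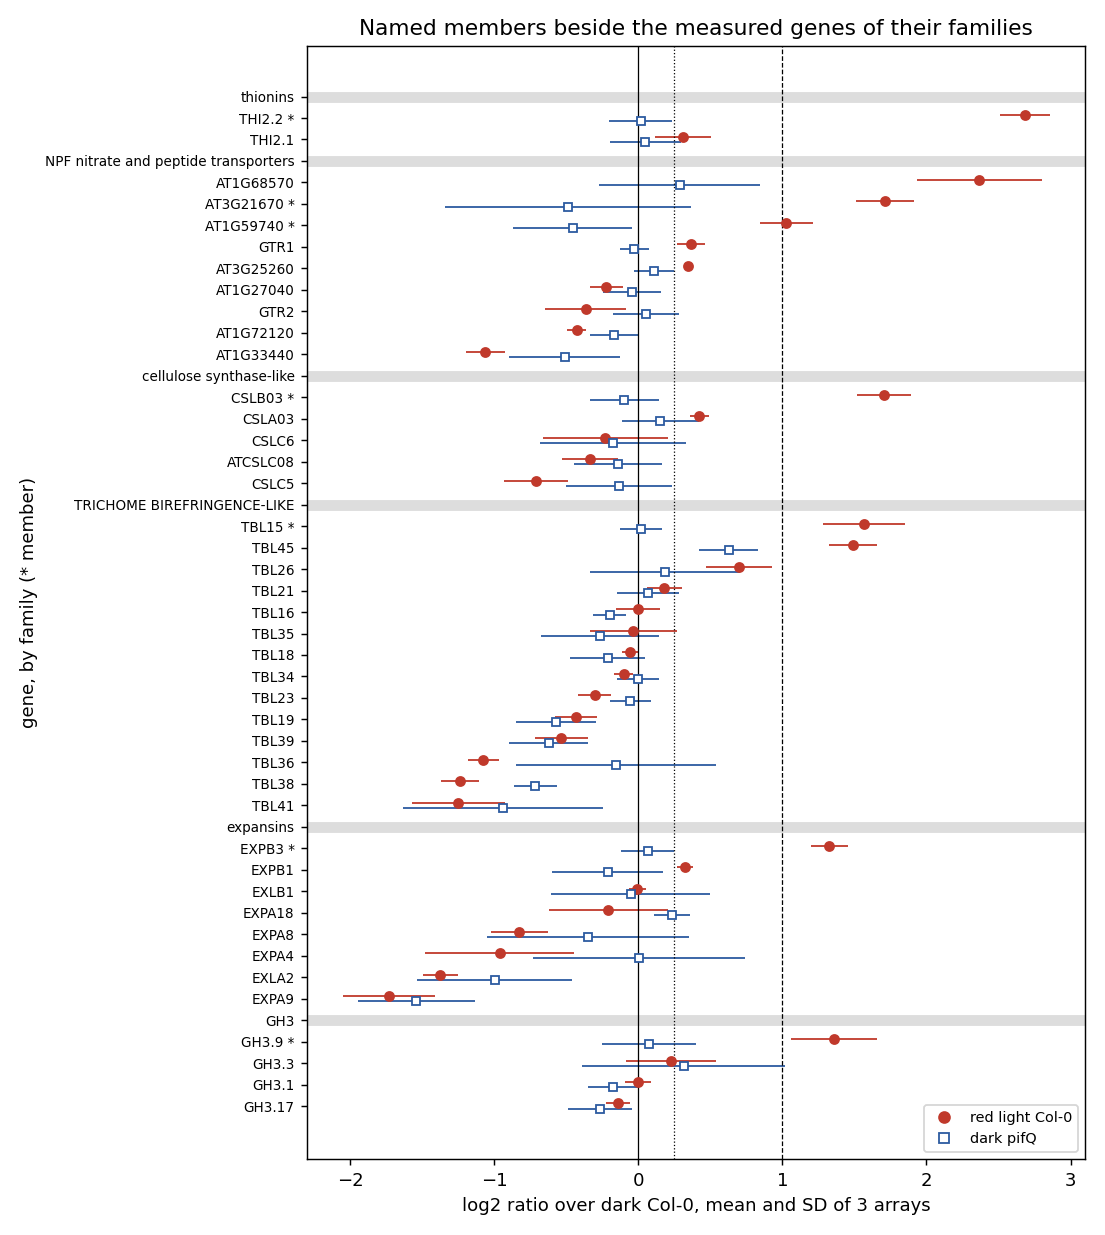
Mean log2 ratio over dark Col-0 in red light and in pifQ for the measured genes of the families to which named members belong, with members marked. The members lie above 1 in red light and near or below 0 in pifQ, while relatives such as EXPA9 (-1.73 and -1.54) lie below 0 in both.

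Among the members known by locus, AT5G42760 had the highest level. It stood at 3.12, 3.15 and 2.85 in red light and at 0.05, 0.08 and 0.13 in pifQ. Both groups were tight, and the gap between the lowest red light and the highest pifQ array was 2.72. Its red light mean of 3.04 ± 0.17 (SD, n = 3) is an 8.23-fold higher level than in dark Col-0, against 1.06-fold in pifQ. AT1G32520 followed THI2.2 in rank, with 2.51, 2.59 and 2.33 in red light and 0.47, 0.14 and -0.15 in pifQ. Its groups were also far apart.

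AT3G56290 stood at 2.12, 2.44 and 2.11 in red light and at -0.08, -0.36 and -0.93 in pifQ. It is both among the highest in red light and among the lowest in pifQ, with all 3 pifQ arrays below 0. AT4G16880 stood at 2.32, 2.25 and 1.91 against 0.11, -0.08 and 0.16, and AT5G50100 at 1.94, 1.94 and 1.82 against -0.33, 0.27 and 0.06. The red light arrays of AT5G50100 agreed within an SD of 0.07, and its pifQ mean was 0.001. AT4G09750, lower in rank, had closely matched pifQ values below 0, at -0.29, -0.26 and -0.27, with 1.41, 1.27 and 1.28 in red light.

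The lowest pifQ mean was that of AT3G16120, at -0.58 ± 0.16 (SD, n = 3). It stood at 1.53, 1.68 and 0.47 in red light and at -0.75, -0.42 and -0.56 in pifQ. The third red light array was low, yet still above every pifQ array. AT1G74460, AT2G03200, AT2G22510 and AT2G46735 also had all 3 pifQ arrays below 0, with means of -0.46, -0.41, -0.37 and -0.32. In all, 9 members were below 0 on every pifQ array and 6 were above 0 on every one, while for 38 members pifQ arrays 1 and 2 had opposite signs. The median SD of a member was 0.28 in pifQ and 0.24 in red light.

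Where pifQ values were most spread, the third array was usually the one apart. It was at least 0.5 in 13 members, against 1 member on pifQ array 1 and 0 on array 2, and at most -0.5 in 9 members, against 4 and 4. AT2G28720 stood at 0.15, -0.68 and 0.79 in pifQ and at 1.82, 2.06 and 0.80 in red light. Its lowest red light array and its highest pifQ array, both array 3, differed by 0.01. AT1G75960 stood at -0.47, -0.63 and 0.66 in pifQ and at 1.27, 1.42 and 0.51 in red light, so its groups overlapped. AT4G31210 stood at -0.16, -0.09 and 0.90 in pifQ and at 1.20, 0.97 and 0.83 in red light, with overlap of the same kind. AT2G20590 stood at -0.05, -0.53 and 0.73 in pifQ and at 1.18, 1.16 and 0.86 in red light, with the groups just apart.

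The third red light array was the lowest of the 3 in 48 of 69 members, or 69.6%, against 37.1% of all genes. Among the other genes with a red light mean of at least 1, it was lowest in 72.8% of those with a pifQ mean from 0.25 to under 1 and in 55.4% of those with a pifQ mean of 1 or more. A drop of more than 1 below the mean of the first 2 red light arrays was seen in 14 members, or 20.3%. It was seen in 14 of 312 (4.49%) and 4 of 74 (5.41%) of the other genes, and in 0.871% of all genes. A drop of more than 0.5 was seen in 33.3% of members, in 37.2% of the 312 and 28.4% of the 74, and in 8.93% of all genes. At that smaller cut the members did not stand out from the other light-raised genes. The difference between these shares was not tested. All 3 groups of genes were cut at a threshold on the mean of the same 3 arrays, and the members' cut on pifQ used array 3 as well.

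AT5G07475 dropped furthest, at 2.31, 2.74 and 0.43 in red light and 0.40, 0.29 and -0.20 in pifQ. Red light array 3 barely cleared pifQ array 1. AT1G74460 stood at 2.54, 2.49 and 0.83 in red light, AT1G56320 at 2.22, 2.66 and 0.93, and AT4G36610 at 2.70, 2.54 and 1.31. These are among the highest members by their first arrays, and all stayed above their pifQ arrays. AT2G22510 and AT4G38080 show the same form, at 2.20, 2.71 and 1.20 and at 2.06, 2.53 and 1.04. AT4G33610 differs from the rest, at 2.54, 0.45 and 0.11, since its first array alone carries its mean of 1.03.

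The 14 members had medians of 2.03, 2.09 and 0.79 on red light arrays 1, 2 and 3, and the other 55 had 1.27, 1.41 and 1.14. The 14 were picked by their drop on array 3, so this contrast follows largely from the choice. Across the 69 members, as a description of points that share arrays, red light arrays 1 and 2 correlated at 0.776 and arrays 1 and 3 at 0.376. In pifQ, array 3 was below the mean of pifQ arrays 1 and 2 in 10 of the 14 and in 18 of the 55, although equal numbers do not mark shared plants in the labels. The distances of array 3 from the mean of arrays 1 and 2, in red light and in pifQ, correlated at only 0.108 over the 69 members. Over all genes they correlated at -0.167. What set the third array apart was not tested.

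**Figure D4:**
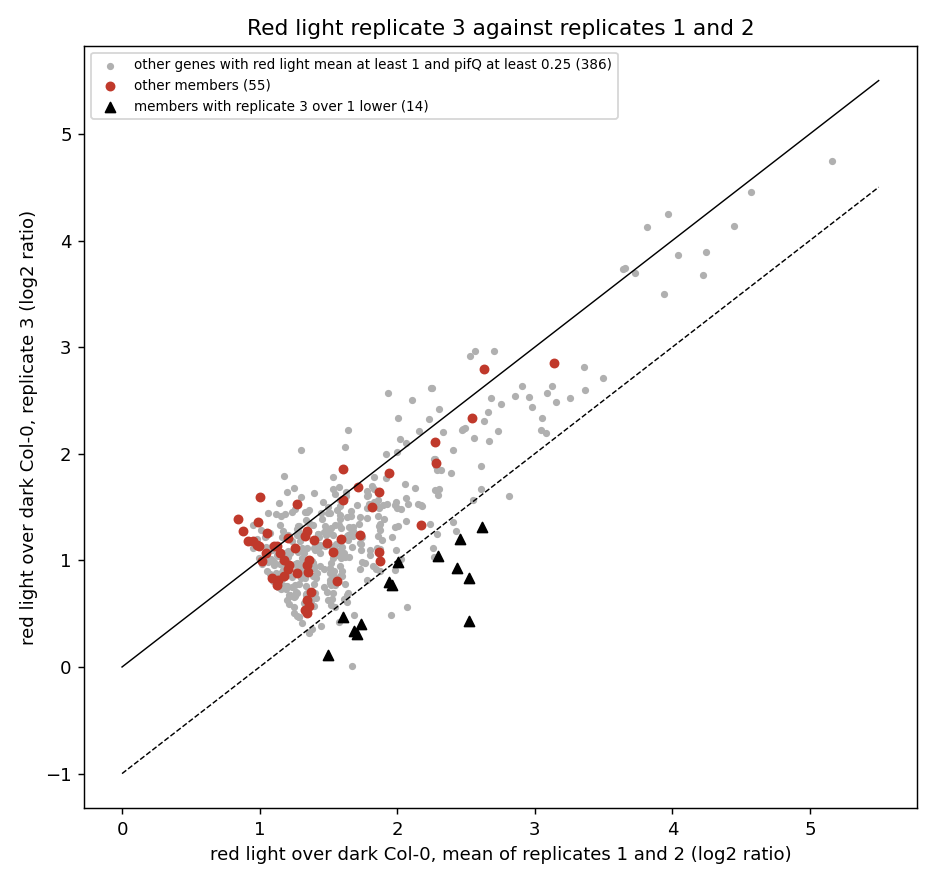
Mean log2 ratio of the members on red light arrays 1 and 2 (x axis) against red light array 3 (y axis), with the 14 members that lie more than 1 below equality marked. The 14 have a median of 0.79 on array 3 and above 2 on arrays 1 and 2, and the other 55 members lie nearer the line of equality. Both follow largely from how the 14 were picked.

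To read the same measure on arrays that did not choose the genes, both thresholds were set on replicates of 2 numbers and the arrays of the remaining number were read. Chosen without replicate 2, 63 genes had medians of 1.48 on red light array 2 and 0.04 on pifQ array 2. Of these, 37 (58.7%) met both thresholds on the unused arrays, against 4.15% of all genes. Chosen without replicate 1, 80 genes had medians of 1.23 and 0.24 on the unused arrays. Both thresholds were met by 36 (45%), against 2.23% of all genes. All genes include the many that red light does not raise, so these joint shares do not show that the pifQ value repeats. The pifQ threshold taken alone was met less often than by all genes. On the unused pifQ array, 44 of the 63 and 43 of the 80 were below 0.25, beside 79.7% and 80.6% of all genes. On the unused red light array, 49 of the 63 and 58 of the 80 were at least 1, beside 9.64% and 7.58%.

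Chosen without replicate 3, the set was larger and held up least. It had 164 genes, with medians of 0.78 on red light array 3 and 0.61 on pifQ array 3, and 23 of them (14%) met both thresholds there, against 1.38% of all genes. On pifQ array 3, 49 of the 164 were below 0.25, beside 76.4% of all genes, while 92 were at least 0.5 and 30 at least 1. On red light array 3, 49 of the 164 were at least 1, beside 4.59% of all genes. Of the 164, 107 are no members, and their median on pifQ array 3 was 0.77. Of the members, 34 were chosen under all 3 of these splits. All choices share the reference and were made with the all-array values known, and the limit on joint shares holds here too.

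**Figure D5:**
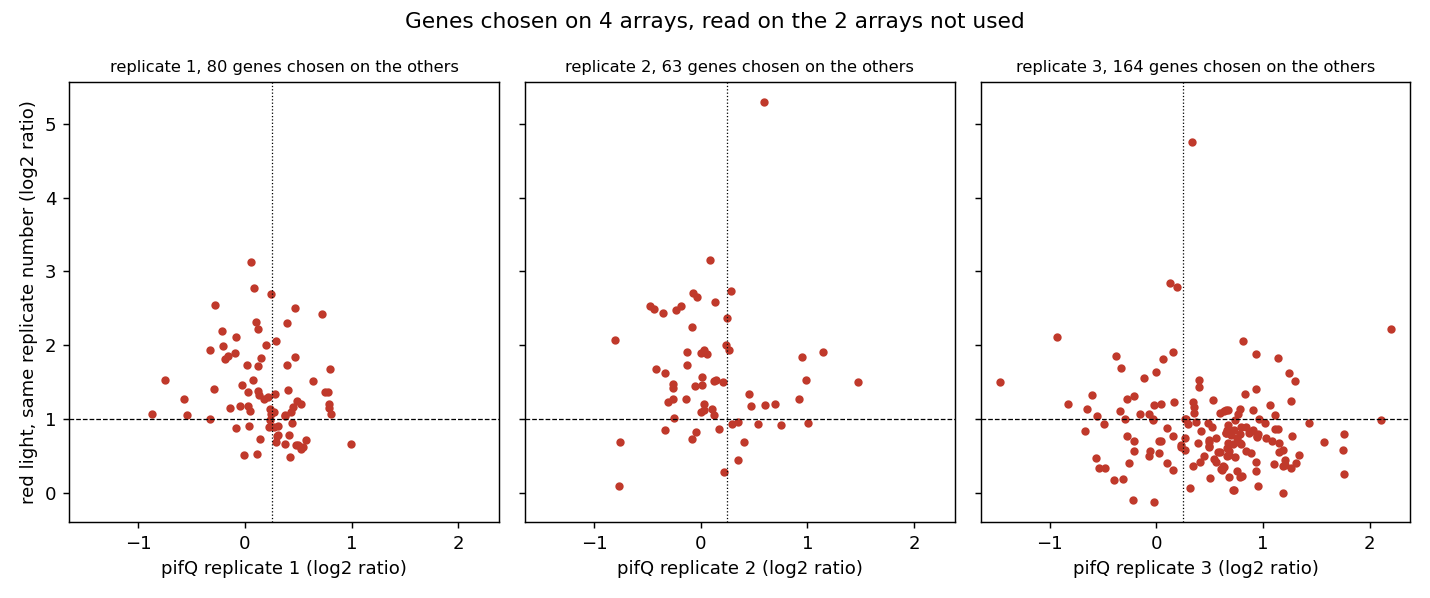
Log2 ratio over dark Col-0 on the unused pifQ array (x axis) against the unused red light array (y axis). Each point is a gene chosen on the other replicates, in 1 panel for each replicate number left out. The median pifQ value is 0.24, 0.04 and 0.61 and the median red light value 1.23, 1.48 and 0.78 for replicates 1, 2 and 3 left out.

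Set in the fit across all genes, 68 of 69 members passed limma's adjusted p of 0.05 as higher in red light, as did 18.8% of all genes. The exception was AT4G33610. In pifQ, 0 members passed as higher, against 4.59% of all genes, and 0 as lower, against 7.04%. At an unadjusted limma p under 0.05, 5 members differed from dark Col-0 in pifQ, 4 lower and 1 higher, against 28.4% of all genes. When red light was set against pifQ, 51 of 69 members passed as higher, as did 2.2% of all genes. These counts follow from how the members were chosen and nothing is read from them.

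The count for red light against pifQ moved with most single arrays, as did the count over all genes, which was 159. Without red light array 1, 2 or 3 it was 15, 26 or 46 members, with 45, 71 or 120 of all genes. Without pifQ array 1, 2 or 3 it was 23, 22 or 63 members, with 63, 63 or 364 of all genes. It was 31 with arrays scaled to the same spread and 23 after quantile normalization. One member, AT3G16120, passed as lower in pifQ under scaling, at -0.67 (limma adjusted p = 0.036), under quantile normalization, at -0.64 (limma adjusted p = 0.0326), and without red light array 3 (limma adjusted p = 0.0288). A missed threshold in pifQ does not show that a member's level equals that in dark Col-0.

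At the edges of the set, the choice turned on hundredths. Just inside the red light threshold were AT4G31210, AT1G57980 and AT4G28070 at 1.00, 1.00 and 1.01, and just outside it AT2G16270, AT2G31725 and AT5G03350 at 0.996, 0.99 and 0.99. Just inside the pifQ threshold were AT4G16140, AT1G07920 and AT4G24175, all at 0.25 after rounding. Just outside were AT1G26880, AT5G37360 and AT5G19750 at 0.25, 0.26 and 0.26. For 22 members the red light mean would fall under 1 without their highest array, and for 22 the pifQ mean would reach 0.25 without their lowest.

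By gene order, members lay on all 5 chromosomes, with 21, 15, 7, 14 and 12 of them on chromosomes 1 to 5. As shares these are 30.4%, 21.7%, 10.1%, 20.3% and 17.4%, beside 26.8%, 14.9%, 19.9%, 14.8% and 23.6% of all named genes. AT4G12980 and AT4G13010 are close neighbours with 2 unmeasured genes between them. AT4G12980 stood at 1.33, 1.88 and 1.56 in red light and at 0.14, 0.06 and -0.12 in pifQ, and AT4G13010 at 1.30, 1.24 and 0.88 and at 0.22, -0.30 and 0.10. Of 40 measured genes next to a member, 2 (AT4G28080 and AT4G36600) had a red light mean of at least 1, beside 6.39% of all genes. Their pifQ means of 0.66 and 0.61 are above the pifQ threshold. The median red light mean of the 40 was 0.05.

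AT1G07920 and AT1G07940 are also near each other, with 1 unmeasured gene between them. They are known as near-identical copies of each other and of AT5G60390, so a probe for one may read the others, and their values are uncertain. No sequences were compared here, and whether the gene between them is a further copy was not checked. AT1G07920 stood at 0.77, 0.99 and 1.28 in red light and at 0.30, 0.09 and 0.35 in pifQ. AT1G07940 stood at 0.90, 0.79 and 1.39 and at 0.28, -0.14 and 0.56. AT5G60390, no member, had 2.37 ± 0.25 (SD, n = 3) in red light and 1.57 ± 0.44 in pifQ (limma adjusted p = 3.87e-05 and 0.0018). It was above 1 on all 6 arrays, so the pifQ threshold kept it out of the set.

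No member is on any of 16 lists of pathway genes, which together hold 215 genes of which 14 were measured. In 8 lists no gene has a named feature, so absence of a pathway from the members says little. The flavonoid and anthocyanin list is the fullest, with 6 of 17 genes measured. All 6 passed as higher in red light, and 5 of the 6, among them DFR, are the genes left out of the set by name. DFR stood at 4.56, 4.00 and 4.45 in red light and at -0.29, -0.09 and -1.29 in pifQ, which is higher in red light than any member. The one that was not left out, UGT78D1, had 0.96 ± 0.21 (SD, n = 3) in red light and 0.75 ± 0.42 in pifQ, short of the first threshold and above the second.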

How the data were processed

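Two-colour arrays measured red-light Col-0 and dark pifQ (3 biological replicates each, grown and harvested independently per the labels) against dark Col-0. The authors deposited log2 ratios, 1 for each array and feature, with the base inferred from the range (-5.63 to 7.85). Per the submitters' processing notes limma was used, with no version or role given there. No source used here gives the background correction or normalization. The deposited column medians lie within 0.01 of 0. No intensities were used, and dim or saturated spots could not be told from others. Precision is limited by the number of arrays.

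Of 45220 features, 7440 carry a gene name (7234 genes, 139 with several features, averaged per array) and 37780 are unnamed. Names came from the TAIR10.1 gene table, which also gave gene order. All genes were fitted with limma 3.58.1 (lmFit, eBayes) in R 4.3.3, with 1 coefficient per group, two-sided tests and Benjamini-Hochberg adjustment over all 7234 genes at 0.05. The ratio against 0 leaves out the control's own spread.

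Members, gene lists and families were chosen with earlier results of these data known, and families by name after values were seen. Members named in the text are the 12 highest in red light, the 8 lowest and 5 most variable in pifQ, the 3 on each side of each threshold, neighbouring or similar genes, and those with an annotated name. AT4G09750, AT5G07475, AT4G33610 and AT5G54300 were named after their values were seen. Promoter and protein sequences were not analysed here.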

Additional observations from a re-analysis of the deposited data

How the results depend on the processing

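The 69 members became 30 after quantile normalization, all 30 among the 69, and 15 when every array had to pass. With a pifQ mean below 0 there were 25, with one below 0.5 there were 172, and with a red light mean of at least 1.5 there were 24. Leaving out 1 array at a time gave 69 to 110 members, of which 53 (without pifQ array 2) to 64 (without pifQ array 3) were among the 69. The members' median red light mean was 1.00 after quantile normalization. Members called as changed in pifQ went from 0 to 1 with scaling or quantile normalization, and from 0 to 1 when 1 array was left out. Members called higher in red light than in pifQ went from 51 to 31 with scaling and 23 with quantile normalization, and from 15 to 63 when 1 array was left out. Over all genes, calls for red light against pifQ went from 159 to 72 with scaling, 55 with quantile normalization, 244 without the genes nearest 0, 393 with array weights and 45 to 364 with 1 array left out. Calls in pifQ went from 841 to 1212 with scaling and 1246 with quantile normalization. They went to 443 with the spread of that group alone and to between 230 and 804 with 1 array left out. Genes called higher in red light went from 1360 to 1092 with scaling, 929 with quantile normalization and 2161 with array weights. With 1 array left out they ran from 781 to 1524. With the replicate number as a block, 35 members and 92 genes were called higher in red light than in pifQ. Deviations of equal numbers correlated at -0.18, -0.15 and -0.17, and those of unequal numbers at -0.11 to 0.26. Correlations this weak cannot decide whether equal numbers pair the samples, which was not tested. The count of members called higher in red light was 66 to 69, which the choice of members fixes. No red light mean of the 33 named members changed sign. Their pifQ means changed sign 24 times in 17 members, all with means of at most 0.22 in size, and 22 of these times with 1 array left out. Of 790 values of named members under these settings, 25 moved by more than 1 SD. The share of promoters with a motif was not run. With 3 arrays per group and no intensities, small differences were not detectable.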

Other observations

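The features without a gene name hold the same pattern. Of 37780 such features, 280 (0.741%) had a red light mean of at least 1 and a pifQ mean below 0.25, beside 78 (1.05%) of the named features. Among features with a red light mean of at least 1, the pattern was seen in 23.2% of the unnamed and 16.6% of the named. The 280 had a median red light mean of 1.30 and reached 4.84, and 10 of them had a mean of at least 3. Their genes are not given here, and several may read 1 gene.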
